A study of Mus musculus with 25 samples.

Results

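Leftward joins in the distal Ter repeat are translocation junctions in which a mouse chromosome break was joined to the outer of the pair of Ter repeats of a reporter cassette, with the joined DNA running from the junction toward the left end of the cassette. Members were the rows of all 10 junction tables on the minus strand, with the junction in the distal repeat, which begins at 3142 in cassette coordinates, and with the aligned part starting left of the whole array. A read that ends inside the repeat in which its junction lies can belong to either repeat. A start left of the array puts unique sequence into the alignment, so that the repeat is known. The rule gave 352 members of 11867 junctions, of which 315 came from Tus libraries and 37 from I-SceI libraries. No control (EV) junction of 468 was a member, which allows a share of up to 0.641%, and 1 EV junction was a leftward array join at all.

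The assay was LAM-HTGTS, a translocation sequencing method that amplifies whatever DNA has been joined to a Cas9-cut bait end. The bait cut lay 30 kb from a 4-kb 1xGFP cassette at ROSA26 in mouse embryonic stem cells, and DNA was taken 48 h after transfection. All groups carried this cassette and received the bait guide. Tus libraries were made in cells labelled BRCA1del/exon11 and BRCA1flox/exon11 with siRNA to BLM, BRCA1, FANCM or luciferase, and are called BRCA1del and BRCA1flox with siBLM, siBRCA1, siFANCM and siLuciferase. I-SceI, and EV, an abbreviation that the labels do not spell out, were used in BRCA1del cells with siFANCM only. There were 3 samples in each BRCA1del Tus group, 3 for siFANCM and 2 for each other siRNA in BRCA1flox, and 2 each for I-SceI and EV. Each sequencing run of a group was taken as 1 library, giving 21 Tus libraries over runs A to D. Whether each genotype was a single clone, and whether replicates were separate cultures, was not given in the sources used here, so the error behind p-values over libraries may be technical.

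Tus is a bacterial protein that binds Ter sites and stops a replication fork that arrives from one side. An array of Ter sites in a mammalian chromosome therefore gives a fork barrier at a known place, whereas the homing endonuclease I-SceI cuts both strands at its own site. BRCA1 acts in homologous recombination and in the protection and repair of stalled forks, BLM is a RecQ helicase, and FANCM is a DNA translocase that remodels stalled forks. Joins between short matching stretches of DNA are called microhomology joins and are typical of alternative end joining.

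The array holds a pair of repeats of equal length, identical at 116 bases and different at 1, with 3 Ter elements apiece. In the coordinates of the deposited tables the proximal copy ran from 3024 to 3140 and the distal copy began at 3142. The proximal copy held Ter1 at 3048 to 3070, Ter2 at 3076 to 3098 and Ter3 at 3104 to 3126. The distal copy held Ter4 at 3166 to 3188, Ter5 at 3194 to 3216 and Ter6 at 3222 to 3244, with the I-SceI site to its right. Reads lacked 1 base that the deposited coordinates have between the copies, so equal places in the copies lie 118 apart in these coordinates. These are positions in the cassette and not in a genome build.

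The bait sequence that the joins share was read from the deposited reads themselves. It is mouse genomic sequence next to the Cas9 cut, shown 5′ to 3′ toward the cut. Its last 48 bases are printed because 4 recurrent overlaps with the Ter repeat fall in them. Of 315 Tus members, 77 had lost over 50 bp of the bait end, so their joins lie outside the printed bases. Capitals mark the bases that bait and distal repeat had in common in the 4 overlaps of at least 4 bp that recurred in 3 or more Tus members and lie within these bases. The fifth recurrent overlap, CTTT with 55 bp lost, lies further from the cut.
Bait end with the ACTT overlap, 3 bp lost: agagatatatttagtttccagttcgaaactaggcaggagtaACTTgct
Bait end with the TTTAGTT overlap, 32 bp lost: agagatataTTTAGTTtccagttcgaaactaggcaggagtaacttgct
Bait end with the TCGA overlap, 22 bp lost: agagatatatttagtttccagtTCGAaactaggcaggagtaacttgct
Bait end with the GTAA overlap, 6 bp lost: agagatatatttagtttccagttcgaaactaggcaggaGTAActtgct

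The ACTT overlap was used by 10 Tus members in 9 libraries and 6 groups, 7 of them BRCA1del and 3 BRCA1flox. Of these, 5 lay at 3188, the last base of Ter4, 2 at 3216, the last base of Ter5, 1 at 3244, the last base of Ter6, and the other 2 at 3172 inside Ter4. The 7-bp TTTAGTT overlap was used by 7 members, of which 2 lay at 3186, 4 at 3214 and 1 at 3242, the same place near the right end of Ter4, Ter5 and Ter6. The TCGA overlap put 4 members at 3164, just left of Ter4, and the GTAA overlap put 3 at 3221, the base before Ter6. All 4 overlaps, with the same loss, were also found in the proximal copy, in 70, 30, 9 and 10 placed Tus joins in the same order. Overlap here is a description of the sequence at the junction, and these overlaps were picked for how often they recurred.

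Members were spread over the whole copy but gathered around its first pair of Ter elements. The 315 Tus members fell on 92 different positions from 3147 to 3256, with a median of 3190 and an interquartile range of 3177 to 3211. Inside Ter4 lay 113 members (35.9%), inside Ter5 89 (28.3%) and inside Ter6 31 (9.84%). Another 34 lay before Ter4, 32 between Ter4 and Ter5, 10 between Ter5 and Ter6, and 6 after Ter6. Within a Ter element the right side was used most: of the 233 members inside an element, 115 lay in bases 16 to 23, 62 in bases 1 to 8 and 56 in bases 9 to 15, counted from the left end. The proximal copy had the same order, with 43.2% of 2018 joins inside an element in bases 16 to 23.

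The 6 positions with the most Tus members lay in or next to the right end of Ter4 and the left end of Ter5. Positions 3186, inside Ter4, and 3190, in the spacer after it, each held 12 members, from 9 and 7 libraries. Positions 3183 and 3189 held 10 each, and 3181 and 3195, the latter in Ter5, held 9 each. The equal places of the proximal copy held 67 joins at 3068, 43 at 3072, 70 at 3065, 71 at 3071, 56 at 3063 and 67 at 3077.

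No group dominated these positions. At 3186 the most members came from BRCA1flox siFANCM, with 3, and BRCA1flox siBLM had none. At 3190 and at 3189 BRCA1flox siLuciferase had the most, with 4 each, while BRCA1del siBRCA1 and BRCA1flox siBLM had none at either, nor BRCA1flox siBRCA1 at 3190. At 3183 BRCA1del siFANCM, BRCA1del siLuciferase, BRCA1flox siBLM and BRCA1flox siFANCM each had 2, and BRCA1del siBLM and BRCA1flox siBRCA1 had none. At 3181 BRCA1del siBRCA1 had the most, with 3, and BRCA1flox siBLM, siBRCA1 and siLuciferase had none. At 3195 BRCA1flox siFANCM had the most, with 3, and BRCA1flox siBLM and siBRCA1 had none.

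**Figure D1:**
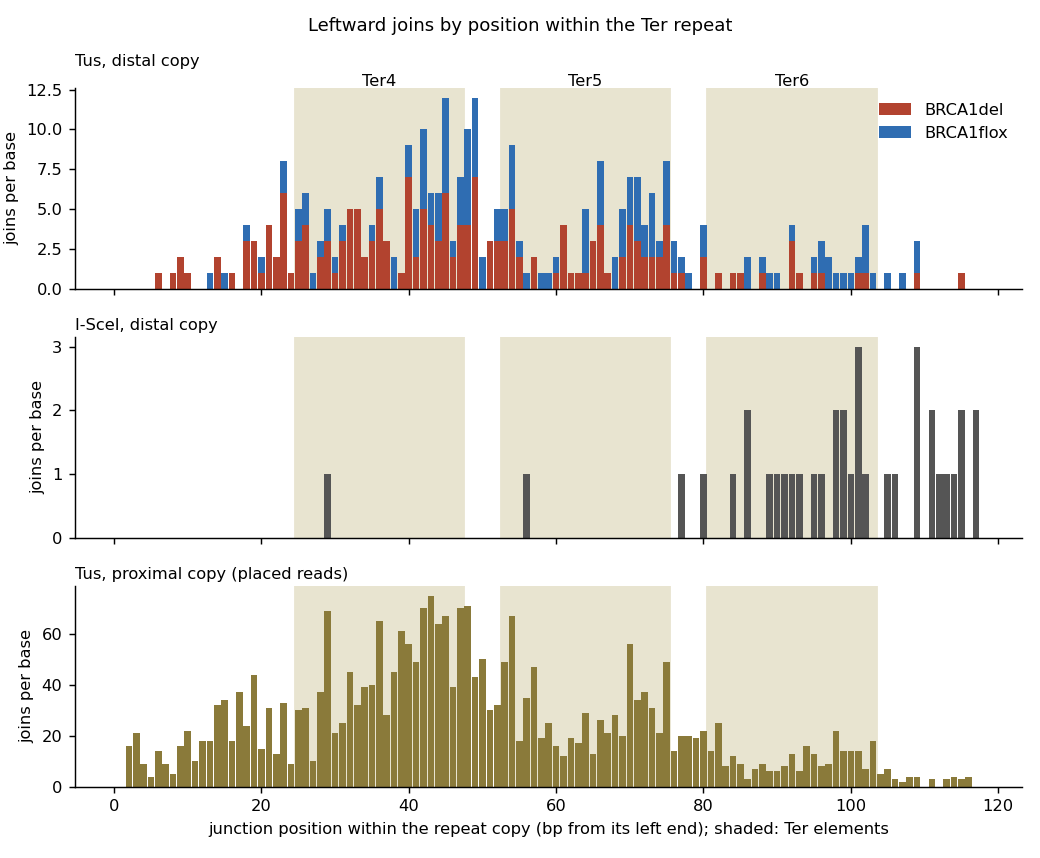
Leftward joins per base against the position within the repeat copy, in bp from its left end, for Tus members (BRCA1del and BRCA1flox stacked), I-SceI members and placed Tus joins of the proximal copy, with the Ter elements shaded. The most joined bases of both copies lie toward the right end of the first Ter element and just after it, whereas 33 of the 37 I-SceI members lie in Ter6 or to its right.

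I-SceI members lay elsewhere in the copy. Of the 37, 19 lay inside Ter6 and 14 after it, 2 between Ter5 and Ter6, and 1 each in Ter4 and Ter5. Their median was 3241 and their interquartile range 3232 to 3250. The start limit asks for longer prey the further right a junction lies. Among distal I-SceI joins whose reads ran 20 bp or more beyond the copy, the order was reversed. Of these 241, 137 lay after Ter6 and 81 inside it, with a median of 3247. The median distance of the I-SceI members to the left end of the I-SceI site was 18 bp, against 69 bp for Tus members. Within 40 bp of it lay 34 of 37, against 42 of 315 with Tus.

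The distal share, that is the members as a percentage of all placed leftward array joins of both copies, separated Tus from I-SceI in the same BRCA1del siFANCM cells. The I-SceI libraries had 82.6% in run A and 75% in run C, and the Tus libraries had 17.6% in run A, 10.2% in run C and 6.98% in run D, so the groups did not overlap. Pooled, 62 of 461 Tus joins and 37 of 47 I-SceI joins were distal, a difference of -65.3 percentage points (p = 1.13e-20, Fisher's exact test). Over libraries the exact permutation p was 0.1, the smallest that 3 against 2 libraries allow. Members as a share of all leftward array joins, placed or not, differed by -3.58 points (p = 0.133, Fisher's exact test). Unplaced distal joins count there as not distal, so this is not the distal share. Among reads that ran 20 bp or more beyond their copy, a limit chosen after seeing the data, 176 of 575 Tus joins were distal. With I-SceI it was 241 of 251, a difference of -65.4 points. Of the I-SceI array joins 19.7% in run A and 16% in run C had reads long enough to be placed, against 63.2% to 79.6% in the 3 Tus libraries.

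Among Tus libraries the distal share ran from 2.96% to 17.6%. With siLuciferase it was 9.95%, 11.7% and 7.62% in runs B, C and D of BRCA1del, and 13.3% and 6.93% in runs C and D of BRCA1flox. With siBLM it was 9.84%, 4.79% and 6.38% in BRCA1del and 2.96% and 13.7% in BRCA1flox, in the same runs. The genotypes overlapped for both siRNAs.

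With siBRCA1 the share was 10.6%, 7.59% and 4.35% in runs B, C and D of BRCA1del, and 5.20% and 8.97% in runs C and D of BRCA1flox. With siFANCM it was 17.6%, 10.2% and 6.98% in runs A, C and D of BRCA1del and 17.0%, 8.70% and 13.8% in runs B, C and D of BRCA1flox. Here too the genotypes overlapped. The siFANCM libraries of run A in BRCA1del and of run B in BRCA1flox were the only Tus libraries of their genotype in those runs.

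Averaged over siRNAs the distal share was 8.96% in BRCA1del and 9.69% in BRCA1flox, a difference of -0.73 points (exact permutation within siRNAs, two-sided, p = 0.652). The pooled joins gave a Mantel-Haenszel odds ratio of 1.01 (exact conditional p = 1). Within each siRNA the pooled difference lay between -1.64 points for siLuciferase and 2.08 points for siBRCA1, and none of the 4 passed Fisher's exact test after Benjamini-Hochberg adjustment (lowest adjusted p = 0.887). Of the 6 comparisons of an siRNA with siLuciferase in the same genotype, none passed either, the lowest being siBRCA1 in BRCA1flox (6.37% against 11.7%, adjusted p = 0.167, Fisher's exact test). Without run D, where BRCA1flox siBLM has 13.7% and siLuciferase 6.93%, siBLM and siBRCA1 in BRCA1flox differed from siLuciferase by -10.4 and -8.13 points, with 1 library left in each group and so no test over libraries. These tests on pooled joins cover counting error only, since joins of 1 library are not replicates.

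A distal join needs a longer read than a proximal join to run out of the array, and read length differed between libraries. Its part in the distal share was not tested. The median prey of array joins whose reads crossed the start of their own copy was 137 bp in run C and 122 bp in run D of BRCA1del, against 131 bp and 168 bp in BRCA1flox. In run C the distal share was higher in BRCA1del for 3 of 4 siRNAs, and in run D it was lower for 3 of 4. An equal requirement was added after seeing the data: a proximal join was counted only where its read, too, ran at least 137 bp beyond the left end of its own copy, a start of 2887 or lower. The members then made up 23.5% of 1340 Tus joins, and the group means ran from 16.8% ± 0.727 (SD, n = 2 libraries) for BRCA1flox siBRCA1 to 28.5% ± 4.80 (n = 3) for BRCA1flox siFANCM. The genotypes differed by 1.10 points (exact permutation p = 0.697), with BRCA1del lower in 2 of 8 run-matched pairs. Another requirement that is equal for both copies, prey long enough to be placed from any array position, left 708 Tus joins and gave the other direction, -6.74 points (exact permutation p = 0.141), with BRCA1del lower in 6 of 8 pairs (exact sign-flip p = 0.0703). Neither passed the threshold. The I-SceI value was 94.9% ± 0.186 (n = 2).

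**Figure D2:**
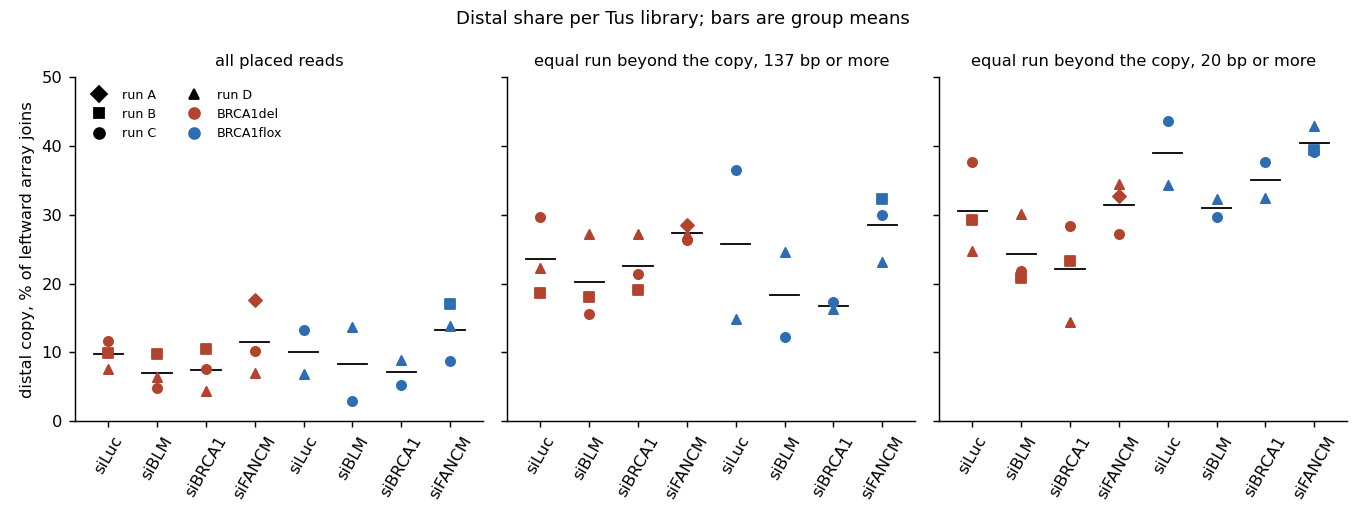
Distal joins as a percentage of leftward array joins for each Tus library, under the 3 requirements on how far a read must run, with the run as the marker shape, the genotype as the colour and the group mean as a bar. In the right panel BRCA1del libraries lie at 14.5% to 37.7% and BRCA1flox libraries at 29.6% to 43.6%, so the ranges overlap there too. In the 8 pairs of the same siRNA and run, all in runs C and D, the BRCA1del library is below the BRCA1flox library.

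When the requirement was lowered equally in both copies, to 20 bp beyond the left end of the copy, which was also chosen after seeing the data, 1331 of 4162 Tus joins were distal, and the genotypes differed. The mean over siRNAs was 27.1% in BRCA1del and 36.3% in BRCA1flox, a difference of -9.24 points (exact permutation within siRNAs, two-sided, p = 0.0008). BRCA1del was lower in 8 of 8 run-matched pairs, with differences of -2.15 to -17.9 points (exact sign-flip p = 0.00781, the smallest that 8 pairs allow). On pooled joins, where joins and not libraries are counted, all 4 siRNAs passed, from -8.30 points for siBLM (adjusted p = 0.0055) to -12.1 points for siBRCA1 (adjusted p = 4.81e-04, Fisher's exact test), while the exact permutation p over their libraries was 0.1 to 0.3. Over Tus and I-SceI, 1550 of the 1572 distal joins of this set held the boundary of the distal copy in sequenced bases. Of its 2842 proximal joins, 2814 held the sequence left of the proximal copy.

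The siRNAs were compared on this wider set of reads too, where differences passed on pooled joins only. In BRCA1del siBLM had 22.3% and siBRCA1 24.0% against 31.4% with siLuciferase (adjusted p = 0.00276 and 0.0136, Fisher's exact test on pooled joins), and siFANCM had 30.6% (adjusted p = 0.804). In BRCA1flox siBLM had 30.6% against 41.3% (adjusted p = 0.00334), siBRCA1 36.1% (adjusted p = 0.176) and siFANCM 39.9% (adjusted p = 0.804), by the same exact test. Over libraries none of the 6 had an exact permutation p below 0.2, where 3 against 3 libraries allow 0.1 and 2 against 2 allow 0.333.

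Elements of the same rank share their sequence and need reads of the same length, so they were also set against each other on these reads. Ter4 took 28.2% ± 9.35 of the joins in Ter1 and Ter4 in BRCA1del (SD, n = 12 libraries) and 38.5% ± 5.72 in BRCA1flox (n = 9), a difference within siRNAs of -10.2 points (exact permutation, adjusted p = 0.0257). Ter6 took 23.4% ± 18.4 of the joins in Ter3 and Ter6 in BRCA1del and 42.8% ± 9.90 in BRCA1flox (-19.6 points, exact permutation, adjusted p = 0.026). Ter5 against Ter2 gave -5.63 points (exact permutation, adjusted p = 0.286), which did not pass.

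The genotype difference was largest in reads that ran only a short way past the copy. At 20 to 39 bp beyond the copy the distal share was 49.7% in BRCA1del (143 of 288) and 62.6% in BRCA1flox (204 of 326), and at 40 to 59 bp it was 36.4% and 54.4%. At 137 to 199 bp it was 23.1% and 18.9%, and at 200 bp or more 21.7% and 31.2%. The share over both genotypes fell from 56.5% at 20 to 39 bp to 19.8% at 100 to 136 bp. The part of read length in the genotype difference of the wider set was not tested.

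**Figure D3:**
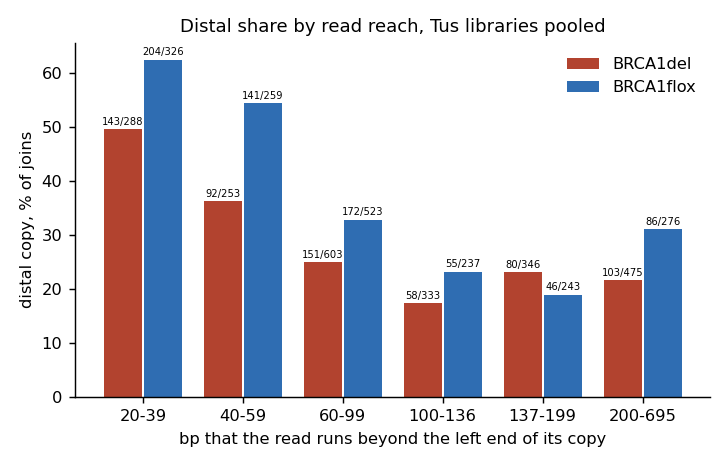
Distal share of leftward array joins, pooled over Tus libraries, against the distance in bp that the read runs beyond the left end of its own copy, with distal and all joins written on each bar. Members are the distal joins of the last pair of bins; BRCA1del is below BRCA1flox in every bin except 137 to 199 bp.

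Position within the copy differed between the genotypes, in the distal and in the proximal copy. Among members, 28 of 183 (15.3%) lay before Ter4 in BRCA1del and 6 of 132 (4.55%) in BRCA1flox, and Ter6 held 12 (6.56%) and 19 (14.4%). The share at or before the end of Ter4 was 56.4% in BRCA1del and 36.8% in BRCA1flox as means over siRNAs, in 18 libraries with 5 or more members (19.6 points, exact permutation within siRNAs, adjusted p = 0.0413). In the proximal copy of the same libraries the share at or before the end of Ter1 was 58.8% and 46.5% (12.3 points, exact permutation, adjusted p = 0.000278). The difference between the copies was 7.31 points (exact permutation, p = 0.564 adjusted with microhomology and blunt joins), so the shift was not shown to differ between them. This comparison of the copies was added after the data were seen.

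In run C, which holds every group, that share was 47.4%, 55.6%, 50% and 70% in BRCA1del with siLuciferase, siBLM, siBRCA1 and siFANCM, and 13.2%, 40%, 33.3% and 33.3% in BRCA1flox. BRCA1del was higher for all 4 siRNAs. BRCA1flox siLuciferase had the lowest values, 13.2% in run C and 14.3% in run D. Without run B the difference was 24.4 points (adjusted p = 0.0648) and without run C 13.1 points (adjusted p = 0.556, exact permutation), so the call rests on those runs. On the wider set of distal reads the difference was 16.6 points (exact permutation, adjusted p = 0.00683), and 19.5 and 8.15 points without run C and without run D (adjusted p = 0.157 and 0.102).

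Join structure was set against the proximal copy of the same library, which has nearly the same sequence, in the 18 Tus libraries with 5 or more joins in each copy. Distal joins had 2 bp or more of microhomology in 53.8% ± 11.5 (SD, n = 18 libraries) against 45.1% ± 11.3 of proximal joins, a difference of 8.75 points that was positive in 14 of 18 libraries (sign-flip permutation, adjusted p = 0.0348). They were blunt in 10.6% ± 8.98 against 16.6% ± 6.88, lower in 14 of 18 libraries (-5.98 points, sign-flip permutation, adjusted p = 0.0168). Without run C neither call held, with 4.61 points for microhomology (adjusted p = 0.58) and -4.81 points for blunt joins (adjusted p = 0.413), nor did microhomology without run B (6.6 points, adjusted p = 0.202, same permutation). The microhomology call also ended with a minimum of 1, 3 or 4 bp (adjusted p = 0.0605, 0.0719 and 0.37), with each position counted once per library (adjusted p = 0.129) and with proximal joins of the wider set weighted to the distal positions (3.42 points, adjusted p = 0.316, same permutation). Joins with inserted bases made up 14.2% ± 10.4 and 14.9% ± 4.79 (sign-flip permutation, adjusted p = 0.792), and 74.8% and 72.0% lay inside a Ter element (adjusted p = 0.538, same permutation).

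Most overlaps were short. Of the 315 Tus members, 168 (53.3%) had 2 bp or more, 82 of them exactly 2 bp, 42 exactly 3 bp and 28 exactly 4 bp, and the longest overlap was 11 bp. A further 64 had 1 bp, 36 were blunt and 47 had inserted bases, with a median of 3 bp inserted. Overlaps of 4 bp or more were found in 44 members (14.0%), against 283 of 2829 proximal Tus joins (10%).

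Microhomology rose from the proximal to the distal copy in 9 of 9 BRCA1del libraries, by 17.4 points ± 7.78 (SD), and in 5 of 9 BRCA1flox libraries, by 0.05 points ± 14.2. The difference between these differences was 18.2 points within siRNAs (exact permutation, adjusted over the 5 measures, p = 0.0542), which did not pass. Adjusted with blunt joins and position within the copy only, the same permutation gave p = 0.0325, so the call depends on the family of measures. Without run D the difference was 13.1 points. With the equal requirement of 137 bp it was 19.7 points (exact permutation, adjusted p = 0.0278), and on the wider set of reads 5.69 points (exact permutation, adjusted p = 0.332). This comparison was added after the data were seen. The minimum of 5 joins left out run D of BRCA1del siBLM, siBRCA1 and siFANCM, with 3 members each, and no BRCA1flox library. The BRCA1flox libraries without a rise were run D of siBLM, siBRCA1 and siFANCM and run C of siBLM. Among proximal joins of these 18 libraries the share was 36.4% in BRCA1del (31.4% to 43.1%) and 53.7% in BRCA1flox (43.6% to 70.2%), without overlap. In BRCA1flox the share was 58.9% to 70.2% in run D and 43.6% to 47.0% in runs B and C. The BRCA1del siLuciferase library of run D had 38.1%. On the wider set, with all 21 Tus libraries, the share was 40.1% in BRCA1del (31.4% to 52.3%) and 53.7% in BRCA1flox (43.6% to 70.2%), so the genotypes overlapped. The difference there was -13.6 points (exact permutation, adjusted p = 0.00405). Among members alone the microhomology share was 53.8% in BRCA1del and 52.8% in BRCA1flox (0.932 points, exact permutation, adjusted p = 0.87), and on the wider set of distal reads 47.8% and 55.7% (-7.90 points, exact permutation, adjusted p = 0.0458).

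**Figure D4:**
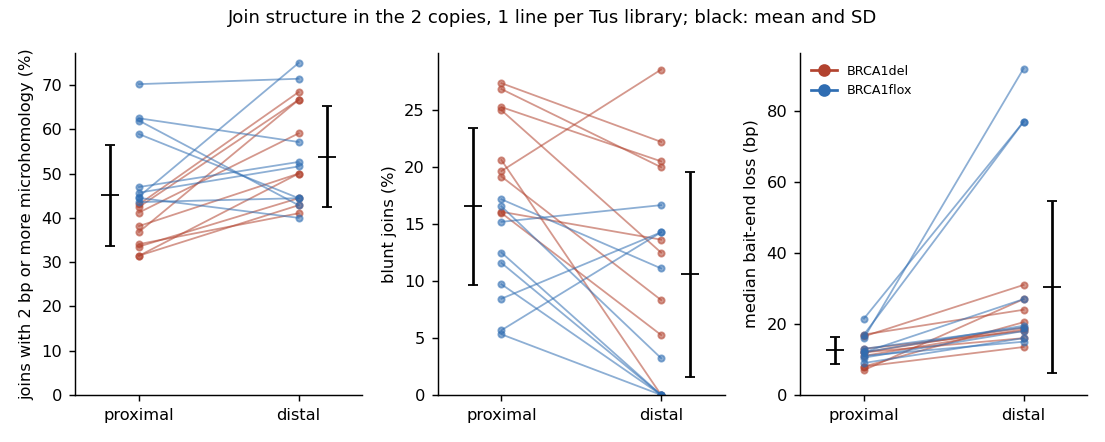
Share of joins with 2 bp or more of microhomology (%), share of blunt joins (%) and median bait-end loss (bp) in the proximal and the distal copy, with 1 line for each of 18 Tus libraries coloured by genotype and the mean and SD in black. Microhomology is higher in the distal copy in 14 libraries and blunt joins lower in 14, and bait-end loss is higher in all 18.

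Blunt joins were more frequent in BRCA1del in both copies. Among members the means were 15.6% against 6.62% in BRCA1flox (8.97 points, exact permutation within siRNAs, adjusted p = 0.0413). Among proximal joins of the same libraries they were 22.3% against 10.9% (11.4 points, exact permutation, adjusted p = 0.000278). The difference between the copies, -2.40 points, did not pass (exact permutation, adjusted over the 5 measures, p = 0.706). No blunt member was found in either BRCA1flox siLuciferase library, among 38 and 7, nor in BRCA1flox siBLM run C, BRCA1flox siFANCM run D or BRCA1del siLuciferase run D, among 5, 9 and 8. Left out in turn, each run ended the call among members, with differences of 6.32 to 11.1 points and adjusted p from 0.0648 to 0.417 (exact permutation). On the wider set of distal reads the difference was 7.39 points (adjusted p = 0.00683, exact permutation), and 6.17 points without run C (adjusted p = 0.157).

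Members had lost more of the bait end than proximal joins. The median loss per library was 30.4 bp ± 24.3 in the distal and 12.6 bp ± 3.78 in the proximal copy (SD, n = 18), higher in 18 of 18 libraries (17.9 bp, sign-flip permutation, adjusted p = 5e-05, with the unadjusted p at the smallest that the resamples can give). The loss was 92 bp in run C of BRCA1flox siBLM, 77 bp in run C of BRCA1flox siBRCA1 and 77 bp in run D of BRCA1flox siLuciferase, and 13.5 to 31.0 bp in the other 15 libraries. With proximal reads that ran as far the difference was 14.6 bp, higher in 15 of 18 libraries (sign-flip permutation, adjusted p = 0.00215). On the wider set of reads it was -0.33 bp (sign-flip permutation, adjusted p = 0.779). Median prey was 268 bp in Tus members and 112 bp in the other distal joins of that set, and the part of read length in this result was not tested.

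Long losses were counted as a description. Among members 52 of 132 (39.4%) in BRCA1flox and 25 of 183 (13.7%) in BRCA1del had lost over 50 bp. On the wider set it was 20.2% of distal and 19.6% of proximal joins in BRCA1flox, against 9.09% and 10.1% in BRCA1del. These pooled shares were not tested. The most frequent losses among all Tus members were 3 bp, in 25 members, and 0 bp, in 23.

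Of the 37 I-SceI members, 14 (37.8%) had 2 bp or more of microhomology, 9 (24.3%) were blunt and 4 (10.8%) had inserted bases, with a median bait-end loss of 14 bp. Run by run, 42.1% and 33.3% had microhomology, and 21.1% and 27.8% were blunt. In Tus BRCA1del siFANCM, the same cells, 28 of 62 members (45.2%) had microhomology and 12 (19.4%) were blunt. Of the 241 distal I-SceI joins of the wider set of reads, 24.5% had microhomology and 35.7% were blunt. Of its 627 distal Tus joins in BRCA1del, pooled over the 4 siRNAs, 47.0% had microhomology and 16.7% were blunt. Among the 183 Tus members in BRCA1del, pooled in the same way, the values were 53.0% and 15.8%. The I-SceI and Tus joins lay at different positions, so these shares were not tested against each other.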

How the data were processed

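Per the labels, DNA from mouse embryonic stem cells grown on feeder cells was sonicated, blocked with XbaI, amplified by LAM-HTGTS and sequenced on a MiSeq. The submitters' processing notes name Bowtie2 and the build mm9, with no role or setting, and the sources used here do not give the filters. Each deposited table holds the junctions of 1 group by position, strand and read sequence. The tables hold 11867 junctions, 148 to 933 per library. Their columns carry no replicate number, so the sequencing run in the read name stood for the replicate, and at least 98.2% of the leading barcodes of a library were 1 barcode.

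The cassette and bait sequences were voted from the reads. Joins were called blunt, inserted or microhomology (2 bp or more) from exact seeds of 10 bp in the bait and 12 bp in the prey, the part of the read that aligns to the cassette. The bait end was set 142 bases from the primer: of the reads that still held base 141, 76.8% held base 142, and of those 33.9% held the next. Of 352 members, 350 held the boundary of the distal copy in sequenced bases and 80 had bases filled between mates. No member repeated another's library, position, far end and bait end. Structure was called in all 352. The prey of members was 163 to 734 bp long. There were 11 members whose start lay within 5 bp inside the limit and 16 distal joins within 5 bp outside it. The window of the proximal copy began at 3025, so 15 leftward joins at 3024 were not used.

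Library values were compared by exact permutation within siRNAs or between groups, or by sign flips with 100000 resamples, in libraries with 5 or more joins per set where structure was compared. Pooled joins were compared by Fisher's exact test. All tests were two-sided with Benjamini-Hochberg adjustment within a family and a threshold of 0.05, and intervals and pooled tests cover counting error only. The caller and the tests were tested on simulated data. Python 3.11.15, numpy 2.4.6, pandas 2.3.3 and scipy 1.17.1 were used. Positions named are the 6 with the most Tus members, their equal places in the proximal copy, and the groups with the most and fewest there. Members, windows and lists were chosen with earlier results of these data known.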

Additional observations from a re-analysis of the deposited data

How the results depend on the processing

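The values are differences in percentage points, or in bp for bait-end loss. The comparisons with equal read requirements, with the weighting to distal offsets and of the genotypes' microhomology differences were chosen after seeing the data. No paired analysis was possible because the tables carry no replicate number by which to pair groups. Libraries of different groups were matched by sequencing run instead, and the copies were compared within libraries. The stricter start limit was 20 bp further left and the looser one 10 bp further right than the one used, and long prey means prey long enough to be placed from any array position. Where a cause is not named, it was not tested.

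The Tus against I-SceI difference lost its call for members as a share of all leftward array joins (-3.58). Unplaced distal joins count there as not distal. The distal share differed by -65.4 with reads that cross the start of their copy and by -38.7 with the I-SceI site included. That difference in distal share lay between -66.8 and -64.6 without single runs. The genotype difference over 4 siRNAs, -0.732 as reported, was 0.317 for members as a share of all array joins. It was 0.520 with each position once per library, 1.10 with proximal reads that run as far and -6.74 with long prey (exact permutation p = 0.141). It was 2.77 with proximal reads that run as far in shared runs or with run as a block. With reads that cross the start of their copy it was -9.24, and -9.09 in shared runs or with run as a block, all past the threshold. Without single runs, over these 3 requirements, it lay between -9.86 and 2.91.

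Within siRNAs, reads that cross gave -8.30 for siBLM, -12.1 for siBRCA1, -9.28 for siFANCM and -9.92 for siLuciferase, past the threshold on pooled joins and not over libraries. The siBLM difference also turned to -1.57 with proximal reads that run as far, -1.90 in shared runs, -0.607 with run as a block, -7.20 with long prey and -0.967 with the stricter start limit. The siBRCA1 difference turned to -2.41 with long prey. For members as a share of all array joins, the difference turned to 1.39 for siFANCM and to 0.119 for siLuciferase. The siFANCM difference also turned to 1.84 with each position once and 1.23 with the stricter start limit. Without single runs these lay between -4.45 and 4.68 for siBLM, -0.0191 and 4.04 for siBRCA1, -3.88 and 3.10 for siFANCM, and -2.66 and 2.27 for siLuciferase.

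Against siLuciferase, reads that cross gave -9.08 for siBLM, -7.33 for siBRCA1 and -0.749 for siFANCM in BRCA1del, and -10.7 for siBLM and -1.39 for siFANCM in BRCA1flox. The siFANCM difference was -0.451 in shared runs and -1.25 with run as a block in BRCA1del, and -1.31, -1.19 and, with proximal reads that run as far, -0.0870 in BRCA1flox. Without single runs the differences in BRCA1del lay between -4.97 and 0.0759 for siBLM, -3.47 and -0.247 for siBRCA1, and -0.397 and 6.65 for siFANCM. In BRCA1flox they lay between -10.4 and 6.79, -8.13 and 2.04, and -1.31 and 9.26.

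Distal against proximal, microhomology missed the threshold with each position once (7.26), a minimum of 1 bp (6.62), 3 bp (6.26) or 4 bp (2.99), long prey (8.74) and weighted offsets (3.42), and lay between 4.61 and 14.1 without single runs. Blunt joins missed it with each position once (-3.78), long prey (-6.35) and weighted offsets (-2.91), and lay between -6.43 and -4.81. Bait-end loss was 13.9 with long prey, which missed it, and -0.333 with reads that cross, and lay between 13.0 and 21.4. With weighted offsets it was -0.489, taken from the mean and not the median loss per library. Inserted joins turned to 4.88 with long prey, 0.0909 with the stricter start limit, 3.01 with reads that cross and 2.32 with weighted offsets, and lay between -2.35 and 2.70. Joins inside a Ter element turned to -1.36 with long prey and -1.83 with weighted offsets, and lay between 2.25 and 3.58.

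Among distal joins, the genotype difference in blunt joins missed the threshold with each position once (7.53), long prey (8.09) and the stricter (4.12) and the looser start limit (9.94). That in joins up to the end of Ter4 missed it with long prey (14.4) and the looser start limit (15.6). That in microhomology turned to -2.08 with each position once, -1.58 with a minimum of 3 bp, -3.51 with the looser start limit and -7.90 with reads that cross. Without single runs, members gave 6.32 to 11.1 for blunt joins, 13.1 to 24.4 for joins up to the end of Ter4 and -3.59 to 4.80 for microhomology. Reads that cross gave 6.17 to 9.97, 8.15 to 21.8 and -9.42 to -6.94 in the same order. Adjusted over the 5 measures, the genotype difference in the distal minus proximal microhomology passed the threshold with proximal reads that run as far (19.7). It also passed with the stricter start limit (18.7), and lay between 13.1 and 22.7 without single runs. Libraries with 3 to 9 members limit all values for single libraries.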
